A study of Mus musculus with 18 samples.

Results

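The transcripts of 34 genes that bring secretory proteins into the endoplasmic reticulum (ER) and modify them there were followed in epithelial cells of mouse colon crypts. The genes were chosen by name and role: 5 of the signal recognition particle (SRP), 2 of its receptor, 8 of the Sec61 translocon and its partners, 4 of the translocon-associated protein (TRAP) complex, 5 of signal peptidase and 10 of the oligosaccharyltransferase. All 34 were rows of the count table, which held 24047 gene symbols.

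A protein destined for secretion is recognized by SRP as its signal peptide leaves the ribosome, docks at the SRP receptor and is threaded through the Sec61 channel. Inside the ER, signal peptidase cuts the signal peptide off, and the oligosaccharyltransferase moves a preassembled glycan from a lipid carrier onto asparagine residues. Goblet cells of the colon send large amounts of glycosylated mucin through this route, and XBP1, the transcription factor made from the mRNA that IRE1 enzymes splice, is known to activate many genes of the route.

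RNA-Seq libraries came from 18 mice in 6 groups of 3, all on a C57BL/6 background. WT mice and mice labelled Ern2-/-, a deletion carried throughout the body of the gene for the epithelial IRE1 paralogue ERN2, were raised conventionally (CONV-WT, CONV-Ern2-/-), were germ free (GF-WT, GF-Ern2-/-) or were germ free, received cecal microbes by gavage and were examined at 14 days (COLONIZED-WT, COLONIZED-Ern2-/-). Ages were not given in the sources used here. The comparisons ask how the genes respond to gut microbes and whether that response differs with Ern2. Nothing in the labels says whether mice of a group shared a cage, so p-values measure the spread between these libraries.

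Some libraries stood apart, and results that rest on them are given with and without them. Library totals ran from 5865619 to 23154481 counts. The 3 shallowest libraries, CONV-WT 3 and CONV-Ern2-/- 2 and 3, held 86832 to 110094 normalized counts of Malat1, a nuclear RNA, against at most 28105 in the other 15. A normalized count is a count divided by the library's DESeq2 size factor over all 18 libraries. Ern2 counts in GF-Ern2-/- 1 and 3 and COLONIZED-Ern2-/- 1 (2877, 3336 and 2567) lay within or above the WT range of 1909 to 3100. COLONIZED-Ern2-/- 3 (1885) lay just under that range. COLONIZED-Ern2-/- 2 read 1325, CONV-Ern2-/- 1 to 3 read 998, 1622 and 1487, and GF-Ern2-/- 2 read 386. DESeq2 called Ern2 in no genotype comparison, with log2 differences of -0.07 in GF, -0.37 in COLONIZED and -1.02 in CONV mice. Leaving out the 3 libraries in or above the WT range, called doubtful here, thus does not set the genotypes cleanly apart. GF-Ern2-/- 2, the only GF-Ern2-/- library left without the doubtful ones, stood apart in absorptive colonocyte markers, which summed to 475524 there and to 55955 and 85247 in GF-Ern2-/- 1 and 3. Gene counts cannot show how much of Ern2 the allele leaves, and the genotype labels are used as given. Libraries with counts of Y-linked genes were 0 of 3 in GF-WT, 2 of 3 in COLONIZED-WT, 1 of 3 in CONV-WT, 2 of 3 in GF-Ern2-/-, 2 of 3 in COLONIZED-Ern2-/- and 3 of 3 in CONV-Ern2-/-. All 8 epithelial markers were present in every group, with sums from 153276 to 220828. Plasma cells, another cell type rich in this machinery, left little trace: the 6 markers in the table summed to 0.746 to 17.8 normalized counts, with Tnfrsf17 at 0 in every library and Mzb1 and Cd79a at or near 0. The list held 9 plasma cell markers, of which Igha, Ighm and Igkc were not in the table, so this trace was judged without them. Sums of the 6 were 9.43 to 17.8 in the conventionally raised groups and 0.746 to 7.83 in the other groups.

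CONV-WT 3 mattered most for these genes. Its counts for the 34 members summed to 37284, against 100505 in CONV-WT 1 and 96407 in CONV-WT 2. Of the members, 25 had their lowest value of all 18 libraries there, and 32 lay under the mean of CONV-WT 1 and 2, with a median log2 ratio of -1.51. Over 10015 genes with a mean of at least 100 normalized counts that median was -0.05. The loss was uneven: Srprb (-2.15), Spcs3 (-2.28) and Stt3a (-2.08) were far lower on the log2 scale, while Srp9 (-0.04), Srp19 (0.03), Srp68 (-0.03) and Srp72 (0.16) were not. The 10 goblet cell markers summed to 75204 in CONV-WT 3 and to 455029 and 412457 in CONV-WT 1 and 2, the 7 mesenchymal markers to 170, 18.9 and 44.4. The part of depth, RNA quality and cell composition in this library's values was not tested. In such bulk samples fewer cells of a type and less RNA per cell cannot be told apart.

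**Figure D1:**
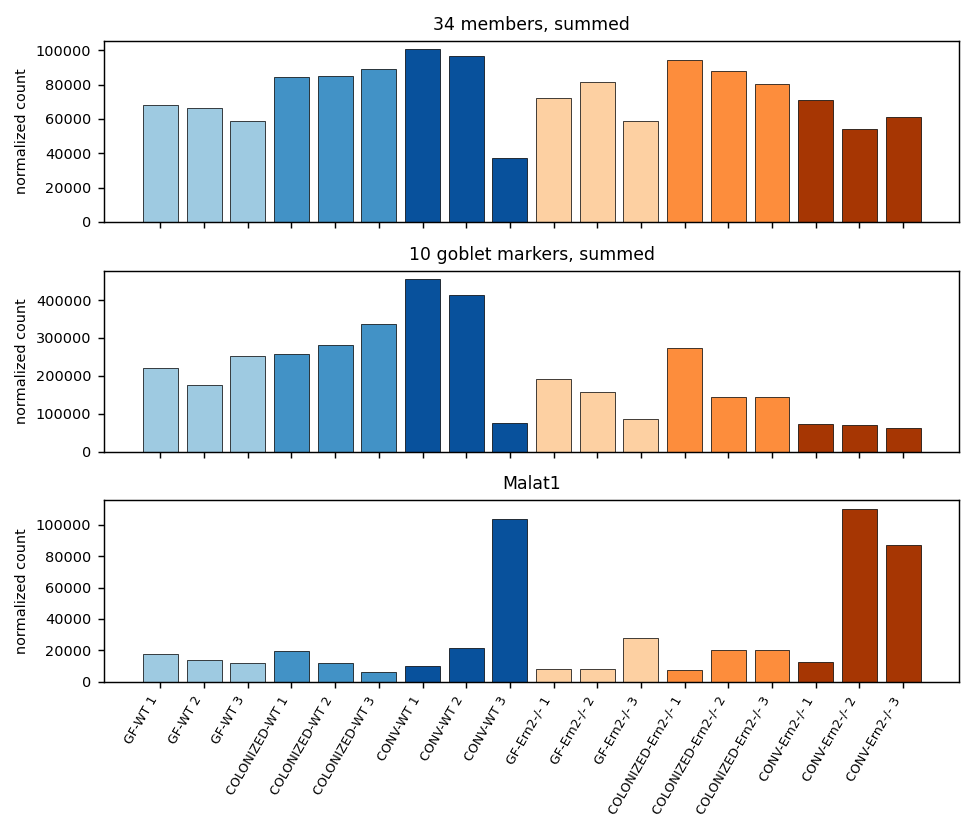
Bars give, for each of the 18 libraries, the normalized counts summed over the 34 members (top), over 10 goblet markers (middle) and of Malat1 (bottom). CONV-WT 3 has the lowest member sum, 37284, and CONV-WT 1 the highest, 100505, and 3 libraries hold 86832 to 110094 normalized counts of Malat1.

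Levels between genes were compared as TPM, counts divided by exon length and scaled to the same total in each library. Exon length was that of all annotated exons of a gene merged, such as 2120 bases for Ddost, 3916 for Dad1 and 10431 for Ssr1. It can exceed the length of the transcripts present, by more in some genes than in others, so the order between genes is approximate. In GF-WT the member with the highest TPM was Ddost, the OST48 subunit of the oligosaccharyltransferase, at 562 ± 133 TPM (SD, n = 3). It was followed by Rpn2 (300 ± 38.3), Ssr2 (285 ± 39.7), Stt3b (263 ± 7.56) and Rpn1 (254 ± 37.1), whose values lay within the spread of their neighbours. Sec61a1, the pore-forming subunit of the translocon, stood at 150 ± 17.5 TPM and its paralogue Sec61a2 at 10.2 ± 1.7. The bottom of the order was held by Tram2 (0.874 ± 0.218) and Sec61g (0.673 ± 0.191). Sec61g encodes a core subunit of the Sec61 channel, and 16.9% of the 75-base stretches of its coding transcripts also occur in transcripts of another gene, above all Gm10177. Its level and that of Ost4 (46.2%, shared with Agbl5 on the opposite strand), Sec61a2 (31.2%), Srprb (26.7%) and Sec61b (18.6%) are uncertain where the counting could not place such reads. Raw counts of Sec61g (4 to 32) and Tram2 (1 to 46) were low in all libraries.

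In the main DESeq2 fits, colonization of GF-WT mice gave more members called higher than any other comparison. A fit of all 18 libraries changed that order, with 2 calls here and 5 in CONV-WT against GF-WT. Comparing COLONIZED-WT with GF-WT, DESeq2 called 14 members higher and 1 lower at an adjusted p under 0.01, where 9.35% of all tested genes were called higher and 8.97% lower. The members' median log2 fold change was 0.36, against -0.01 over all genes tested, and 32 of 34 were positive. Of the 32 members with a mean of at least 100 normalized counts, 26 had all 3 COLONIZED-WT libraries above all 3 GF-WT libraries and 1 had them below, where 23.3% and 27% of genes did so. edgeR's quasi-likelihood test, the stricter tool here, called 7 members higher and 1 lower (3.12% and 1.82% of genes). Fits that left out 1 of the 6 libraries called 12 to 15 members, not always the same ones. Shares of all genes are not given for these fits, so their counts do not set the members apart from other genes. No GF-WT library and 2 COLONIZED-WT libraries had counts of Y-linked genes, and with that split as a covariate 3 members were called higher, Krtcap2, Ssr2 and Sec61a1 (1.16% of genes), with a median of 0.32 and 32 of 34 positive. A fit on all 18 libraries called 2 higher, Sec61b and Krtcap2 (5.09% of genes), with a median of 0.35 and again 32 of 34 positive. Goblet markers moved at the same time: 5 of 10 were called higher and 2 lower, and their sum was 176762 to 251286 in GF-WT and 257323 to 335560 in COLONIZED-WT, while 2 of 8 absorptive colonocyte markers were called lower. The part of goblet cell numbers in the members' change was not tested.

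Within the targeting machinery 1 of 5 SRP genes and 1 of 2 SRP receptor genes were called higher, where 9.35% of all genes were. Srp19, which helps assemble SRP, read 458, 383 and 343 normalized counts in GF-WT and 792, 569 and 607 in COLONIZED-WT. The groups did not overlap, and the log2 fold change was 0.74 ± 0.19 (SE; adjusted p = 0.000901, DESeq2), a call kept in 4 of 6 fits that left out a library. The other SRP genes were not called. Srp9, which with Srp14 pauses translation, read 469, 468 and 460 against 490, 554 and 526, a log2 difference of 0.18 that missed the threshold (adjusted p = 0.324, DESeq2). In the SRP receptor, the membrane anchor Srprb rose by 0.55 ± 0.12, and the docking subunit Srpr gave 0.27 ± 0.11 (adjusted p = 0.0498, DESeq2).

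Of the 8 genes of the translocon and its partners 2 were called higher, Sec61a1 and Sec61b of the channel, where 9.35% of all genes were. The third channel subunit Sec61g, scarce in all libraries, was not called (0.96, SE 0.62). Whether called and uncalled genes differed from each other was not tested. Sec61a1 (chr6:88503579-88518905, minus strand, mm10) read 4761, 4465 and 4060 normalized counts in GF-WT and 7083, 6912 and 6993 in COLONIZED-WT. All colonized libraries were higher, by 0.67 ± 0.11 on the log2 scale (adjusted p = 1.46e-07, DESeq2). Sec61b, the small tail-anchored subunit, went from 812, 841 and 660 to 1215, 1316 and 1406, a rise of 0.78 ± 0.15. Sec62 (0.14) and Sec63 (0.04), which serve the import of finished chains together with the chaperone BiP, and Sec61a2 (0.09) were close to 0 and not called. Tram1, a membrane protein that contacts incoming signal peptides, gave 0.34 ± 0.12 (adjusted p = 0.017, DESeq2).

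Of the TRAP complex, which sits beside the channel and assists some substrates, 3 of 4 genes rose. Ssr2 (TRAPβ; chr3:88575876-88588419, plus strand, mm10) went from 2506, 2483 and 2022 normalized counts to 4094, 3945 and 4182, a log2 fold change of 0.81 ± 0.13 (adjusted p = 3.37e-08, DESeq2). Ssr1 (TRAPα) went from 2696, 2653 and 2571 to 3922, 3703 and 3880, with very close replicates in both groups (0.55 ± 0.10). Ssr3 (TRAPγ) read 3217, 3103 and 3136 in GF-WT and 3823, 3866 and 4319 in COLONIZED-WT. Its rise of 0.35 ± 0.11 was the smallest called, and it passed the threshold in 0 of the 6 fits that left out a library. Ssr4 (TRAPδ) gave 0.42 ± 0.15 (adjusted p = 0.0177, DESeq2).

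Signal peptidase holds either SEC11A or SEC11C as its catalytic subunit, and only Sec11c was called. Sec11c read 1472, 1540 and 1016 normalized counts in GF-WT and 2004, 2007 and 2284 in COLONIZED-WT (0.65 ± 0.18, adjusted p = 0.00225, DESeq2), a call kept in 3 of 6 fits without a library. Sec11a gave 0.25 ± 0.15. The accessory subunits Spcs1 (0.19), Spcs2 (0.37) and Spcs3 (0.12) did not pass. Spcs3 went from 1639, 1434 and 1484 to 1480, 1644 and 1800, so its groups overlapped.

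The oligosaccharyltransferase held both the largest called rise and the only called fall; Tram2, scarce in all libraries, gave -1.02 (SE 0.46, adjusted p = 0.0833, DESeq2). It exists as a complex around STT3A, which works at the translocon and carries the subunits OSTC and KRTCAP2, and a complex around STT3B, which carries TUSC3 or MAGT1. Krtcap2 (chr3:89245966-89249906, plus strand, mm10) read 832, 843 and 657 normalized counts in GF-WT and 1735, 1515 and 1682 in COLONIZED-WT. It rose by 1.09 ± 0.15 on the log2 scale (adjusted p = 3.8e-11, DESeq2), the smallest adjusted p among the members, and edgeR called it too (adjusted p = 0.00466). Of its coding transcript stretches, 13.2% also occur in transcripts of another gene, above all Trim46. Ostc rose by 0.74 ± 0.15, and the catalytic Stt3a, at 3458, 3059 and 3042 against 3835, 3926 and 4141, gave 0.33 ± 0.12 (adjusted p = 0.0206, DESeq2). On the STT3B side, Tusc3 (chr8:39005845-39165114, plus strand) read 713, 700 and 698 in GF-WT and 323, 456 and 405 in COLONIZED-WT. It fell by 0.83 on the log2 scale (SE 0.17, adjusted p = 1.43e-05, DESeq2). With sex as a covariate and with all 18 libraries 0 members were called lower, so the call of Tusc3 was lost in both fits. Stt3b (0.07 ± 0.11) and Magt1 (0.12 ± 0.12), which is not among the 34, did not pass. Of the subunits common to both complexes, Rpn1 (0.67 ± 0.13), Rpn2 (0.49 ± 0.12), Dad1 (0.62 ± 0.15) and Ost4 (0.58 ± 0.13) rose, and Ddost gave 0.37 ± 0.17 (adjusted p = 0.0942, DESeq2).

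**Figure D2:**
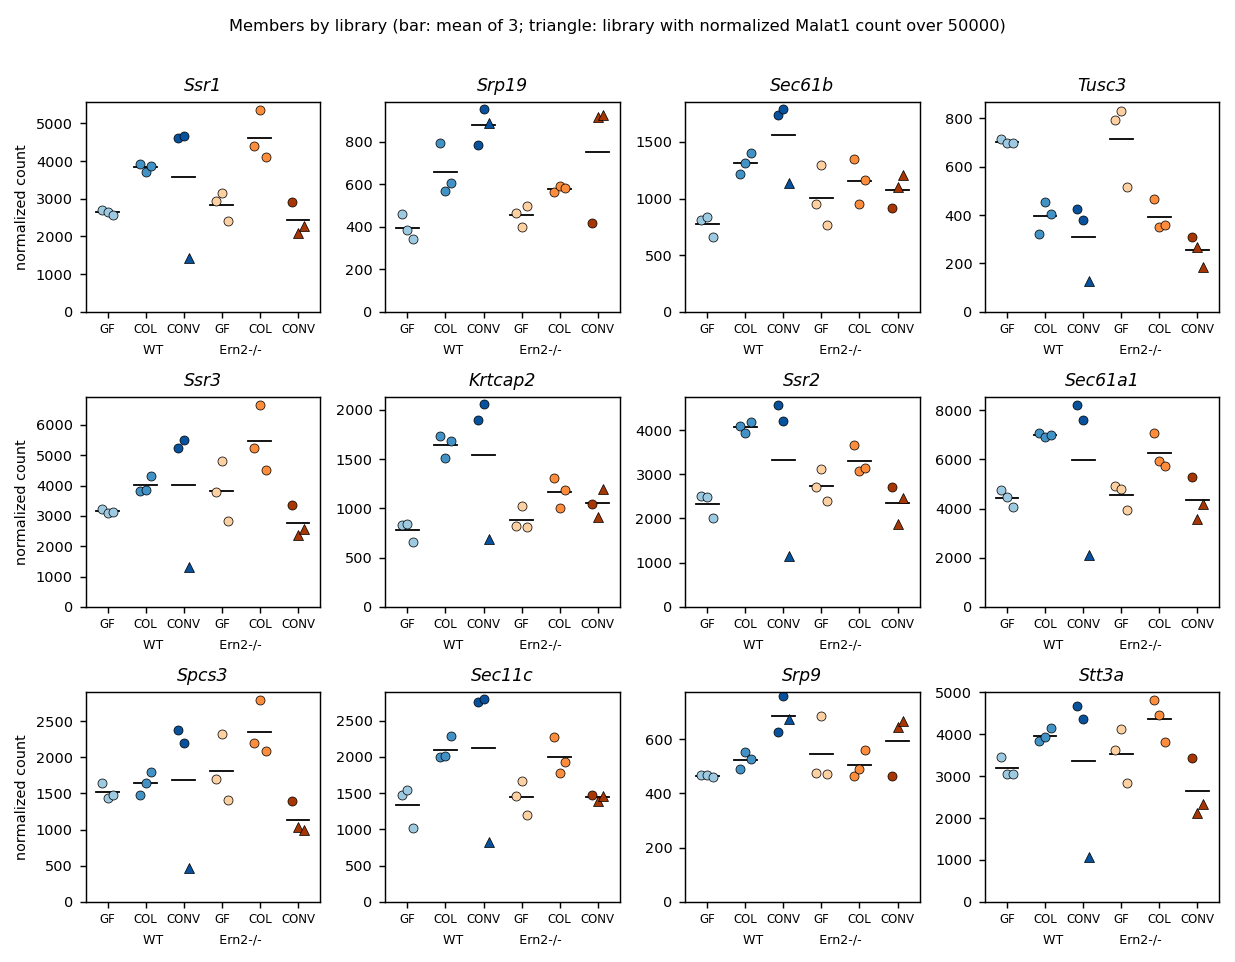
Points give the normalized count of each library for 12 members, with the mean of each group of 3 as a bar; GF, COL and CONV stand for germ free, COLONIZED and conventionally raised. Krtcap2 sits between 657 and 843 in GF-WT and between 1515 and 1735 in COLONIZED-WT, Tusc3 falls from 698 to 713 to 323 to 456, and triangles mark the 3 libraries with high Malat1.

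RefSeq promoter windows (GRCm38.p6, 250 bases before and 50 after the start site) were found for 25 of the 34 members, and none for Srp19, Srp68, Sec61a1, Tram1, Ssr2, Spcs3, Sec11c, Tusc3 and Ostc. They were searched on both strands for letters known to be bound under ER stress: the element ERSE (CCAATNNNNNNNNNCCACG), ERSE-II (ATTGGNCCACG), the core TGACGTGG and the CCACG that both ERSE and ERSE-II contain. ERSE was in the windows of 0 members (0.137% of 27025 genes), ERSE-II in 1 (0.0444% of genes), the core in 0 (0.714%) and CCACG in 18 of 25, or 72% (35.5% of genes). CCACG was held by 7 of the 9 windows of members called higher after colonization and by 11 of the other 16. The member with ERSE-II was Krtcap2, with the match starting 17 bases after one of its start sites on chromosome 3. Its surroundings, with the fixed letters of the element in capitals, read as follows.
Krtcap2 ERSE-II: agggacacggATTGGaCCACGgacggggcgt
The windows of the 4 called members with the smallest adjusted p that had an entry are shown whole because these genes rose together; they were chosen after their values were seen. Capitals mark CCACG or its complement CGTGG and, in Krtcap2, the other fixed letters of ERSE-II. Krtcap2 lies at chr3:89246223-89246522 (plus strand), Ssr1 at chr13:37994159-37994458 (minus strand), Sec61b at chr4:47474411-47474710 (plus strand) and Rpn1 at chr6:88084223-88084522 (plus strand). The window of Sec61b held no CCACG although the gene was called. These matches describe letters and not bound sites.
Krtcap2: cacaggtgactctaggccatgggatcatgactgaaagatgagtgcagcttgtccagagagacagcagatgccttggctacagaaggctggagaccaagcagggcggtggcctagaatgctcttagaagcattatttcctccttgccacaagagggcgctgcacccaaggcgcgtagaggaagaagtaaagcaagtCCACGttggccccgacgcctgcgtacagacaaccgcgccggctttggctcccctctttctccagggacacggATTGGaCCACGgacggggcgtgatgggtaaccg
Ssr1: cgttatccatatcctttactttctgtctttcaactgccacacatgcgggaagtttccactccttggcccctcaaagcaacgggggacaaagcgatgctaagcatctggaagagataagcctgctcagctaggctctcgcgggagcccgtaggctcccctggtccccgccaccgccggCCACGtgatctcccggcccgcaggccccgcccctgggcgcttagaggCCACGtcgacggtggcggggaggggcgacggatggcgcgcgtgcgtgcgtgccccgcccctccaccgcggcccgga
Sec61b: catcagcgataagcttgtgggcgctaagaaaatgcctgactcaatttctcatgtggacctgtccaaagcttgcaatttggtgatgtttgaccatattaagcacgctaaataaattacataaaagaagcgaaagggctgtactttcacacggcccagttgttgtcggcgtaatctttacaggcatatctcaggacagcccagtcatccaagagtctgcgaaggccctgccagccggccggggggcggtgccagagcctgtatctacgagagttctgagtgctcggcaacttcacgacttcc
Rpn1: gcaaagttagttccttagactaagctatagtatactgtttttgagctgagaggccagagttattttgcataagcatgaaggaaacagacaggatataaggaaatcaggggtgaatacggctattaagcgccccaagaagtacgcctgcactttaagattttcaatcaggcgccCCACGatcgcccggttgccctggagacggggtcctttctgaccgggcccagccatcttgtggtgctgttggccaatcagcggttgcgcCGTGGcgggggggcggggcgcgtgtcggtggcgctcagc

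Genes of neighbouring steps were counted from lists of the same pathway, to be read against the 9.35% of all genes called higher in this comparison. Of 11 measured genes for other targeting and translocon functions, 5 were called higher in COLONIZED-WT, led by Hspa5 (1.35 ± 0.18), the gene for BiP, and its partner Hyou1 (1.31 ± 0.19), with a list median of 0.47. The same list holds Tmem258, a further subunit of the oligosaccharyltransferase, which rose by 0.47 ± 0.15. Of 20 genes that build the lipid-linked glycan donor, 3 rose, including the glucosyltransferase Alg8 (1.00 ± 0.18) and the mannosyltransferase Alg3 (0.73 ± 0.18). Of 8 genes of glucose and mannose trimming and the calnexin cycle, 3 rose, with the smallest adjusted p for the lectin chaperone Calr (0.95 ± 0.16) and the folding sensor Uggt1 (0.72 ± 0.15). Of 15 genes for insertion of multipass proteins 3 rose, including Ncln (0.51 ± 0.11) and Emc8 (0.52 ± 0.14), and of 7 genes of the GET route for tail-anchored proteins 0 were called, with a median of -0.08. No gene of these 5 lists was called lower. With sex as a covariate the calls in the order given were 2, 0, 0, 0 and 0, and with all 18 libraries 0, 0, 1, 1 and 0, with list medians of -0.09 to 0.47. Xbp1 rose by 0.41 ± 0.12 (adjusted p = 0.00568, DESeq2).

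Conventionally raised WT mice were compared with the same 3 GF-WT libraries, so this comparison shares its controls with the one above. DESeq2 called 4 members higher and 0 lower (5.68% and 5.28% of genes), with a median log2 fold change of 0.30 against 0.00 over all genes, and edgeR called 0 members (0.175% of genes in either direction). The 4 were the SRP genes Srp19, Srp9 and Srp72 and the channel subunit Sec61b. Srp19 read 784, 955 and 888 normalized counts in CONV-WT, above all GF-WT libraries (1.14 ± 0.20, adjusted p = 4.7e-07, DESeq2). Srp9 read 627, 759 and 674 (0.55 ± 0.15), and Sec61b 1742, 1795 and 1138 (1.01 ± 0.25). With sex as a covariate the members' median was 0.11 and 1 was called (6.64% of genes in either direction). Of the markers, 3 of 10 goblet genes were called higher and 2 lower, 3 of 8 absorptive genes lower and 1 of 7 mesenchymal genes higher.

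Without CONV-WT 3 the same comparison looked different. DESeq2 then called 24 members higher and Tusc3 lower (10.5% and 10.3% of genes), with a median of 0.59, on 2 against 3 libraries. CONV-WT 3 was singled out with its low member values known. Leaving it out lifts most members in CONV-WT, so calls made without it are no separate evidence of a rise. Goblet markers summed to 455029 and 412457 in these 2 CONV-WT libraries, against 176762 to 251286 in GF-WT, and their part in the members' values was not tested. Leaving out any other library left 1 call, Srp19, with no share of all genes given. Krtcap2 shows the dependence: it read 1891 and 2058 in CONV-WT 1 and 2 but 688 in CONV-WT 3, within the GF-WT range, and its log2 fold change without CONV-WT 3 was 1.34 ± 0.17. Ostc (1.13), Sec11c (1.05), Ssr2 (0.91), Sec61a1 (0.84), Ssr1 (0.81) and Ssr3 (0.77) were also called higher without that library. The 9 members called in neither fit were Srp14, Srp68, Sec61a2, Sec61g, Sec63, Tram2, Sec11a, Ddost and Stt3b. CONV-WT did not differ from COLONIZED-WT at the threshold in any member. DESeq2 called 0 (0.119% of genes) and edgeR 0 (0% of genes), with 3 members at an unadjusted p under 0.05 by DESeq2 (7.26% of genes). Without CONV-WT 3 DESeq2 again called 0 (1.59% of genes). The members' median turned from -0.09 (10 of 34 positive) with all libraries to 0.23 (31 of 34 positive) without that library.

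**Figure D3:**
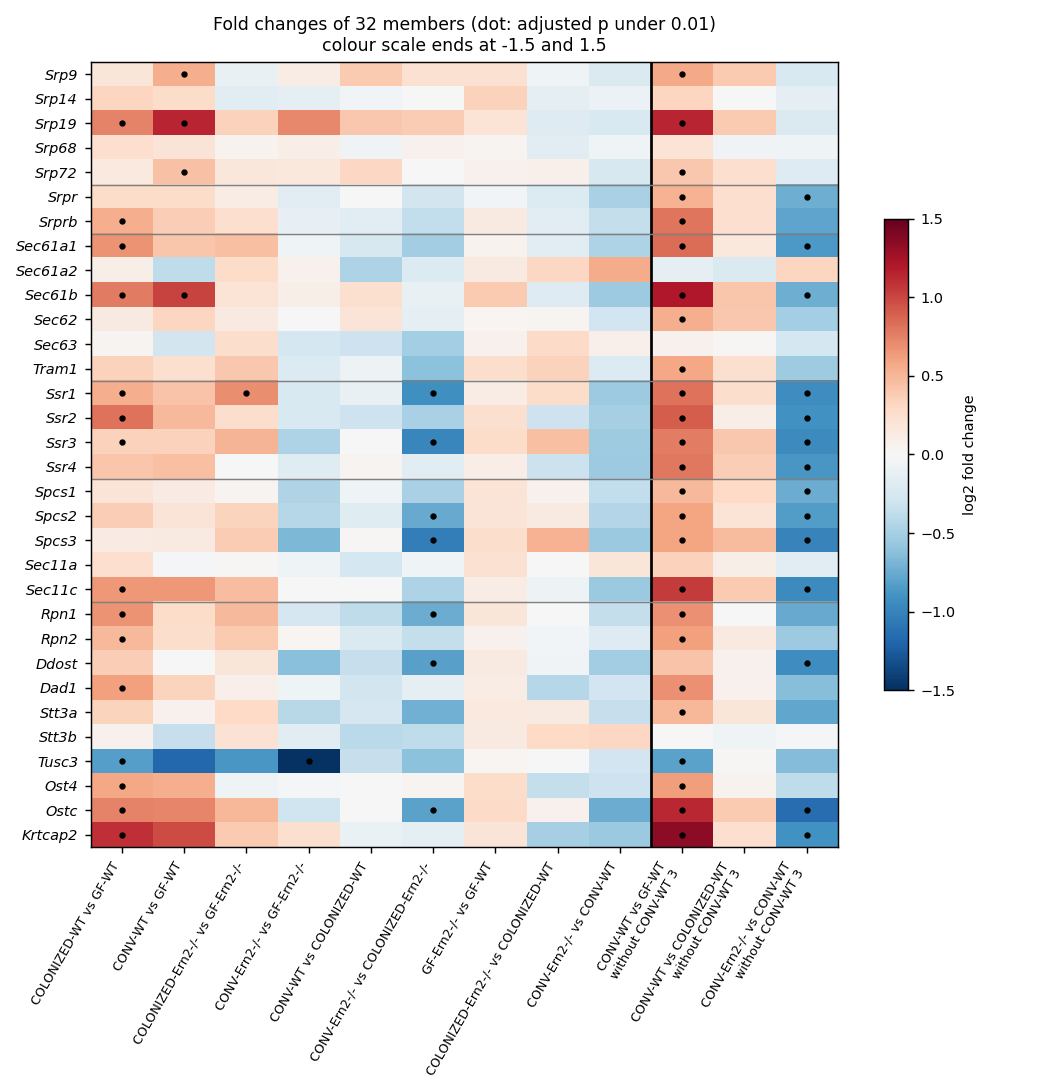
Colours give the log2 fold change of the 32 members with a mean of at least 100 normalized counts (rows, grouped by complex) in the 9 comparisons and, right of the line, in 3 of them without CONV-WT 3; dots mark an adjusted p under 0.01. Calls in CONV-WT vs GF-WT go from 4 to 25 without that library.

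In mice labelled Ern2-/- colonization moved few members past the threshold. COLONIZED-Ern2-/- against GF-Ern2-/- gave 1 call higher and 0 lower (3.6% and 3.57% of genes), with a median of 0.24 against -0.02, and edgeR gave 0 (0.216% in either direction). The call was Ssr1, at 2949, 3154 and 2404 normalized counts in GF-Ern2-/- and 4402, 5368 and 4099 in COLONIZED-Ern2-/- (0.70 ± 0.20, adjusted p = 0.0071, DESeq2). It was kept in 1 of 6 fits without a library, and without the 3 libraries of doubtful label its adjusted p was 0.142. Tusc3 fell from 795, 832 and 515 to 467, 349 and 361, with no overlap, and just missed the threshold (log2 fold change -0.87, SE 0.26, adjusted p = 0.0108, DESeq2). Without the doubtful libraries, which leaves 1 GF-Ern2-/- library, Tusc3 was the only call (-1.25, SE 0.32, adjusted p = 0.00148, DESeq2; 5.56% of genes lower), and the members' median was -0.03. The spread in that fit comes from the COLONIZED-Ern2-/- libraries alone, and the lone library is assumed to vary like them. Krtcap2 read 821, 1022 and 812 against 1311, 1005 and 1183 (0.39 ± 0.20), Sec61a1 4925, 4812 and 3935 against 7066, 5950 and 5739 (0.45 ± 0.19), and Ssr2 2705, 3119 and 2393 against 3666, 3080 and 3154 (0.26 ± 0.19). Of the 5 pathway lists, 2 of 11 genes for other targeting and translocon functions were called higher here, Hspa5 (1.61 ± 0.27) and Hyou1 (1.44 ± 0.23), 1 of 20 for the lipid-linked glycan, Alg8 (0.97 ± 0.19), 1 of 8 for trimming, Mogs (0.76 ± 0.20), 0 of 15 for multipass insertion and 0 of 7 of the GET route, with list medians of -0.15 to 0.24 and 0 called lower. Without the doubtful libraries the calls of Alg8 and Mogs were lost: in the same order 2, 0, 0, 0 and 0 genes were called higher and 0, 1, 0, 0 and 0 lower, with list medians of -0.25 to 0.04. Goblet markers summed to 85614 to 191489 in GF-Ern2-/- and 143614 to 274341 in COLONIZED-Ern2-/-, with 3 of 10 called higher and 1 lower, and 4 of 8 absorptive markers were called lower; the part of these markers' cells was not tested.

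**Figure D4:**
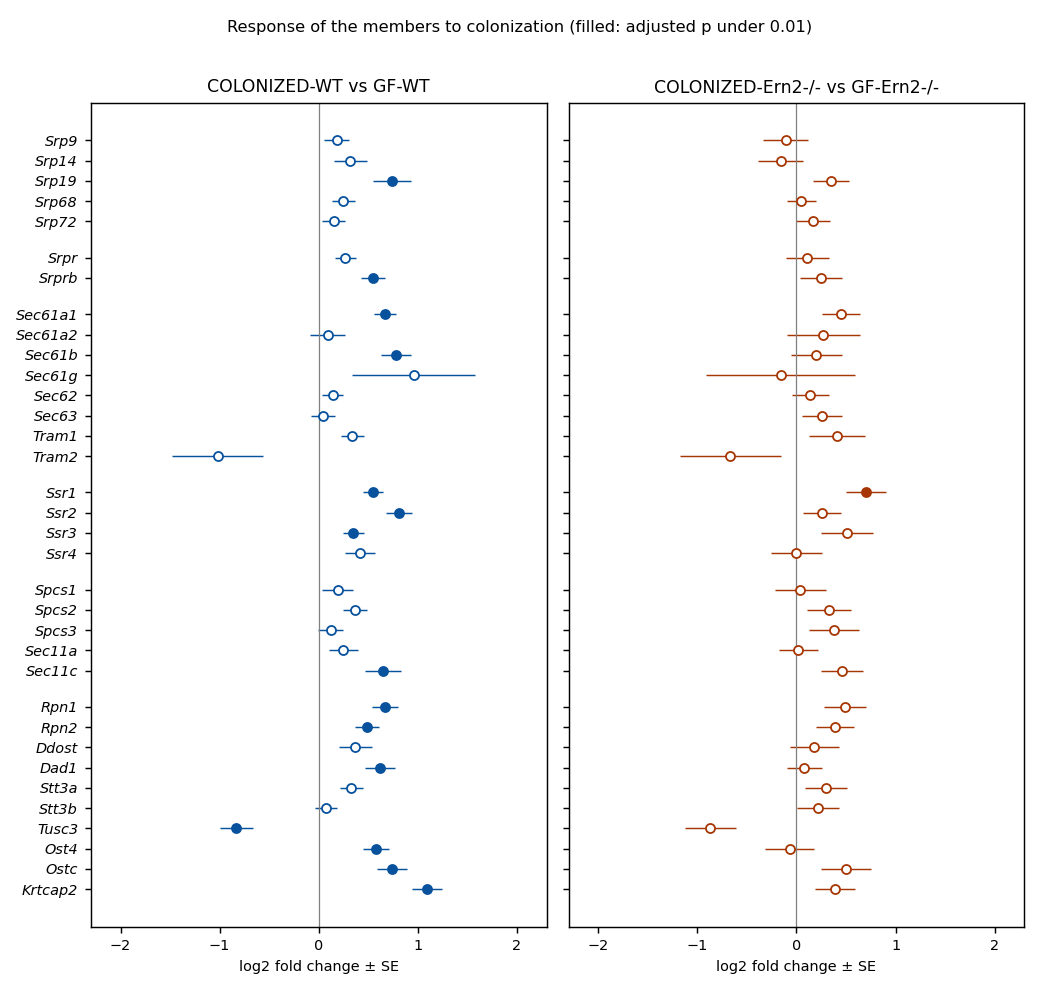
Points give the log2 fold change on colonization (± SE) of all 34 members in WT (left) and Ern2-/- (right), ordered by complex, and filled points passed an adjusted p of 0.01. In WT 15 members are filled, from Tusc3 at -0.83 to Krtcap2 at 1.09, and in Ern2-/- only Ssr1 is filled.

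CONV-Ern2-/- against the same GF-Ern2-/- libraries gave 0 members higher and 1 lower (1.57% and 2.77% of genes), with a median of -0.14 against -0.01, and edgeR called 0 (0.0325%). The 1 was Tusc3, at 310, 269 and 185 normalized counts in CONV-Ern2-/- and under every GF library. It fell by 1.48 on the log2 scale (SE 0.31, adjusted p = 9.19e-05, DESeq2), a call that all 6 fits without a library kept. Without the high-Malat1 libraries, which leaves 1 CONV-Ern2-/- library and takes the spread from GF-Ern2-/-, its fall was 1.21 (adjusted p = 0.151, DESeq2) and 0 members were called (1.57% of genes in either direction). The members' median was -0.04 in that fit, -0.35 without the doubtful libraries and -0.21 with sex as a covariate, the last 2 with 1 call each (3.18% and 4.01% of genes). Goblet markers summed to 63923 to 73445 in CONV-Ern2-/-, with 4 of 10 called lower than in GF-Ern2-/-, and 1 of 7 mesenchymal markers was called higher (sums of 20.9 to 157 against 13.4 to 39.6). The part of these markers' cells was not tested.

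Between the microbe-bearing Ern2-/- groups, 7 members were called lower in CONV-Ern2-/- than in COLONIZED-Ern2-/- and 0 higher (3.73% and 4.86% of genes), with a median of -0.36 against -0.01, and edgeR called 0 (0.282% in either direction). They were the signal peptidase subunits Spcs3 and Spcs2, the TRAP subunits Ssr1 and Ssr3, and Rpn1, Ddost and Ostc of the oligosaccharyltransferase. Spcs3 read 2197, 2785 and 2085 normalized counts in COLONIZED-Ern2-/- and 1392, 1031 and 993 in CONV-Ern2-/- (log2 fold change -1.04, SE 0.21, adjusted p = 4.92e-05, DESeq2). Ssr3 read 5243, 6651 and 4503 against 3367, 2366 and 2569 (-0.98, SE 0.22), and Ssr1 had 2906, 2102 and 2282 in CONV-Ern2-/- (-0.92, SE 0.20). In all 3 genes the groups were apart. Their lowest values were those of CONV-Ern2-/- 2 and 3, the libraries with high Malat1, and without both of them, which leaves 1 CONV-Ern2-/- library, 0 members were called (4.02% of genes in either direction). The log2 fold changes were then -0.75 (SE 0.25) for Spcs3, -0.69 (SE 0.26) for Ssr3 and -0.66 (SE 0.24) for Ssr1, and the members' median was -0.25. Their spread comes from the COLONIZED-Ern2-/- libraries alone, and the lone library is assumed to vary like them. Single left-out libraries gave 2 calls (without CONV-Ern2-/- 3) to 16 (without CONV-Ern2-/- 1), and 3 without COLONIZED-Ern2-/- 1, 3 without CONV-Ern2-/- 2 and 4 without COLONIZED-Ern2-/- 2 or 3. Shares of all genes are not given for these fits, so the counts do not set the members apart from other genes. Beside them, 6 of 10 goblet markers were called lower and 6 of 8 absorptive colonocyte markers higher, with absorptive sums of 328523 to 445911 against 101277 to 181780. Of the other markers, 1 of 7 mesenchymal (sums of 20.9 to 157 against 7.12 to 15) and 1 of 8 epithelial genes were called higher, and the part of this shift in the members' values was not tested.

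Genotype labels were compared within each microbial state. In germ-free mice 0 members were called (0.0349% of genes in either direction), and 0 had an unadjusted p under 0.05 (1.48% of genes). By edgeR 0 were called (0% of genes). Over the 32 members with a mean of at least 100 normalized counts, log2 differences of Ern2-/- minus WT ran from -0.04 (Srpr) to 0.39 (Sec61b), with SE of 0.15 to 0.38. Without the doubtful libraries, which leaves 1 GF-Ern2-/- library, it was again 0 (4.53% of genes), with a median of 0.40 and the spread taken from GF-WT alone. The direction of the members' median turned with sex as a covariate, from 0.14 to -0.11 (0 called; 0.054% of genes), where 0 of 3 GF-WT and 2 of 3 GF-Ern2-/- libraries had counts of Y-linked genes. In colonized mice 0 of 32 members with an adjusted p were called (1.37% of genes), 8 had an unadjusted p under 0.05 (16.2% of genes), and edgeR called 0 (0.00786% of genes). Sec61g and Tram2 received no adjusted p there for their low counts. The smallest adjusted p was that of Krtcap2, whose 3 COLONIZED-Ern2-/- values lay under all 3 of COLONIZED-WT (log2 difference -0.50, SE 0.14, adjusted p = 0.0155, DESeq2). Without COLONIZED-Ern2-/- 1, the library with Ern2 in the WT range, Krtcap2 (-0.59, SE 0.14) and Dad1 (-0.53, SE 0.13), a subunit named for its defence against apoptotic death, were called lower (2.25% of genes). Of the goblet markers, 2 of 10 were called lower in the comparison with all libraries, and their part in the members' values was not tested. Spcs3 (0.52 ± 0.16) and Ssr3 (0.45 ± 0.16) pointed the other way, without a call.

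In conventionally raised mice DESeq2 called 0 members (3.03% of genes) and edgeR 0 (0% of genes), and 1 member reached an unadjusted p under 0.05 (13.6% of genes). The median log2 difference was -0.36 against 0.02, with SE up to 0.55 over the same 32 members. With sex as a covariate (counts of Y-linked genes in 3 of 3 CONV-Ern2-/- and 1 of 3 CONV-WT libraries) the members' median was -0.72 and 0 were called (1.88% of genes). Without CONV-WT 3 the members' median was -0.73, and DESeq2 called 14 members lower in CONV-Ern2-/- (5.22% of genes). They were Srpr, Sec61a1, Sec61b, all 4 TRAP genes, Spcs1, Spcs2, Spcs3, Sec11c, Ddost, Ostc and Krtcap2, and the largest difference was that of Ostc (-1.14, SE 0.20). As above, CONV-WT 3 was singled out with its low member values known, and leaving it out lifts most members in CONV-WT. CONV-Ern2-/- 2 and 3, also high in Malat1, stayed in this fit. Without all high-Malat1 libraries, 2 CONV-WT libraries against 1 CONV-Ern2-/- library, 8 were called lower (11.2% of genes in either direction): Srp19, Sec61b, Ssr2, Ssr4, Sec11c, Ddost, Ostc and Krtcap2. In the latter fit the members' median was -0.56. CONV-Ern2-/- has no replicate there, so the spread comes from the 2 CONV-WT libraries alone. The lone library is assumed to vary like them. In CONV-WT 1 and 2 goblet markers summed to 455029 and 412457 against 63923 to 73445 in CONV-Ern2-/-, with 6 of 10 called lower in the full comparison. Absorptive markers summed to 40470 and 73642 against 328523 to 445911, with 4 of 8 called higher. The part of this shift in the members' values was not tested.

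Whether the response to microbes differed with genotype was tested as an interaction. For colonization 0 members were called by DESeq2 (0.028% of genes) and 0 by edgeR (0% of genes), and 4 reached an unadjusted p under 0.05 (5.76% of genes). Log2 differences of response ran from -0.69 (Krtcap2) to 0.27 (Spcs3) over those 32. Without the 3 doubtful libraries, Sec61b (-1.07, SE 0.27), Ssr2 (-0.82, SE 0.23), Ost4 (-1.13, SE 0.27) and Krtcap2 (-1, SE 0.27) responded less in Ern2-/- and Sec61a2 (1.27 ± 0.34) more, where 1.06% of genes were called lower and 2.35% higher. This fit has 1 GF-Ern2-/- library, replicate 2 with its high absorptive markers and a Sec61a2 count of 108 against 238 and 322 in replicates 1 and 3, and it is assumed to vary like the libraries of the other groups. For conventional raising 0 members were called by DESeq2 (0.177% of genes) and 0 by edgeR (0% of genes), and 2 reached an unadjusted p under 0.05 (6.65% of genes). Without CONV-WT 3 the response was smaller in Ern2-/- for Ssr1, Ssr2, Ssr3, Spcs3, Ostc and Krtcap2 (1.15% of genes lower), by -1.43 (SE 0.33) for Ostc, and without all high-Malat1 libraries, which leaves 1 CONV-Ern2-/- library assumed to vary like the other groups, for 0 members (1.59% of genes in either direction). The differences of response were then -1.27 (SE 0.41) for Ostc, -1.12 (SE 0.33) for Krtcap2 and -0.94 (SE 0.31) for Ssr2. The members' median was -0.69 in that fit and -0.85 without CONV-WT 3 alone, against -0.50 with all libraries. Calls without CONV-WT 3 carry the limit given above, that it was singled out with its low member values known. A fit that misses the threshold does not show that the genotypes respond alike.

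Paralogous subunits were compared by the log2 ratio of their counts in each library, germ-free against microbe-bearing, with a two-sided exact permutation test that exchanged labels within each genotype label (7056 arrangements, adjusted over 5 pairs). The ratio of Tusc3 to Magt1, the alternative oxidoreductase subunits of the STT3B complex, was -1.54, -1.42 and -1.43 in GF-WT and -1.44, -1.83 and -1.9 in GF-Ern2-/-. In the 12 microbe-bearing libraries it ran from -3.57 to -2.11, below all 6 germ-free libraries. The difference was -1.18 (exact permutation p = 0.000142, the smallest these arrangements can give, and adjusted p = 0.000709). The same libraries gave the calls of Tusc3 above, and Magt1 was added after its values were seen. This p-value is therefore no separate evidence of the fall of Tusc3. Group means were -2.43 in COLONIZED-WT, -2.80 in CONV-WT, -2.78 in COLONIZED-Ern2-/- and -3.07 in CONV-Ern2-/-. Magt1 itself was called in 0 of the 9 comparisons.

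The ratio of the catalytic signal peptidase genes, Sec11a to Sec11c, was lower with microbes by 0.40 (exact permutation p = 0.00142, adjusted p = 0.00354), but not in every group. Libraries used here also gave the call of Sec11c in COLONIZED-WT above, so this p-value is no separate evidence of the rise of Sec11c. The ratio was -0.29 ± 0.14 (SD, n = 3) in GF-WT, -0.71 ± 0.06 in COLONIZED-WT, -0.95 ± 0.15 in CONV-WT, -0.19 ± 0.10 in GF-Ern2-/- and -0.63 ± 0.08 in COLONIZED-Ern2-/-. In CONV-Ern2-/- it was -0.26 ± 0.18, where 1 of 3 libraries (-0.22) lay within the germ-free range of -0.37 to -0.11, 1 just above it (-0.10) and 1 below it (-0.45). CONV-WT 3, low in both genes, kept its group's ratio at -0.80. Sec11c alone read 1459, 1672 and 1198 normalized counts in GF-Ern2-/-, 2280, 1773 and 1930 in COLONIZED-Ern2-/- and 1477, 1389 and 1462 in CONV-Ern2-/-.

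Tram1 to Tram2 gave a difference of 1.04 (exact permutation p = 0.0103, adjusted p = 0.0172), which rests on 1 to 46 counts of Tram2 and passes the threshold of 0.05 used for these ratios but not the 0.01 used for genes. Without the libraries of doubtful label this difference passed neither threshold, and that of Sec61a1 to Sec61a2 turned negative. The translocon pores Sec61a1 and Sec61a2 (0.25, exact permutation p = 0.325, adjusted p = 0.393) and the catalytic Stt3a and Stt3b (0.09, exact permutation p = 0.393, adjusted p = 0.393) did not pass either threshold over all groups, and their groups moved in different directions. The mean ratio of Sec61a1 to Sec61a2 was 4.44 in GF-WT, 5.02 in COLONIZED-WT and 5.09 in CONV-WT, and 4.49 in GF-Ern2-/-, 4.53 in COLONIZED-Ern2-/- and 4.20 in CONV-Ern2-/-. That of Stt3a to Stt3b was -0.62, -0.37 and -0.33 in WT and -0.60, -0.53 and -0.84 in Ern2-/-, in the same order. In both pairs all 3 COLONIZED-WT libraries lay above all 3 GF-WT libraries, which was not tested for single groups. Stt3a was the scarcer of that pair in raw counts in every library, with ratios from -0.94 to -0.05.

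**Figure D5:**
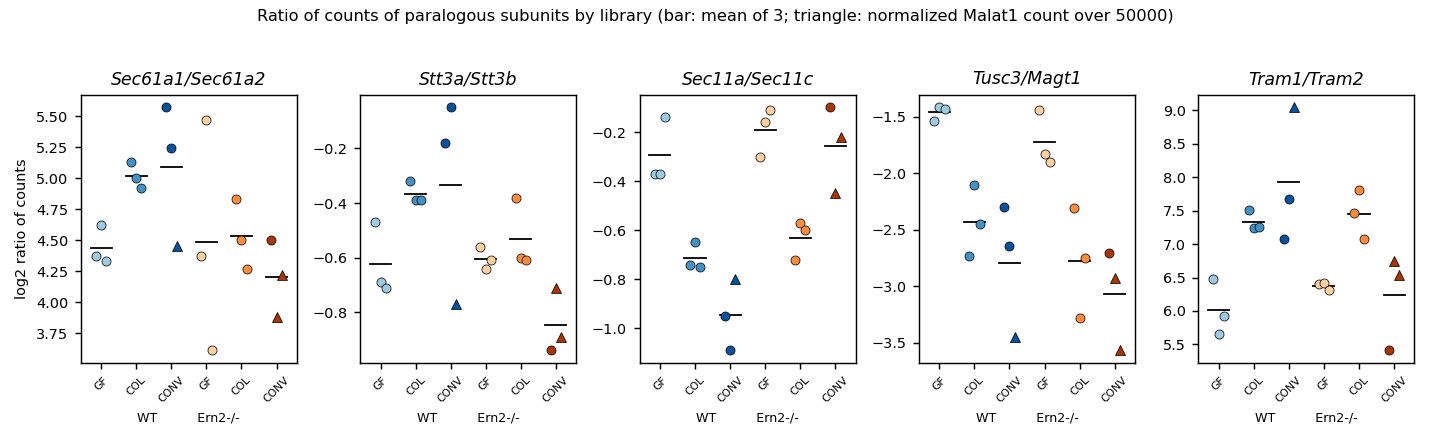
Points give the log2 ratio of counts of 5 paralogue pairs in each library, with group means as bars and triangles for the 3 libraries with high Malat1. For Tusc3/Magt1 the 6 germ-free libraries lie between -1.9 and -1.42 and the 12 microbe-bearing libraries between -3.57 and -2.11; for Sec11a/Sec11c CONV-Ern2-/- (-0.45 to -0.10) stays near the germ-free groups.

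Across the 9 comparisons 20 of the 34 members were called at least once, 13 of them in 1 comparison, 6 in 2 and Ssr1 in 3, where 23.4% of all tested genes were called at least once. The 14 never called were Srp14, Srp68, Srpr, Sec61a2, Sec61g, Sec62, Sec63, Tram1, Tram2, Ssr4, Spcs1, Sec11a, Stt3a and Stt3b, of which Srpr, Sec62, Tram1, Ssr4, Spcs1 and Stt3a were called higher in CONV-WT than in GF-WT once CONV-WT 3 was left out.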

How the data were processed

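RNA-Seq gene counts of 18 libraries of mouse colon crypt epithelial cells were used as the authors deposited them: raw counts per gene symbol, made with STAR on mm10 (submitters' processing notes) from stranded mRNA libraries read from a single end. Whether counting used strand is not given in the sources used here. Totals ran from 5865619 to 23154481 counts, which limits the scarce genes most. Each comparison was fitted over all genes on its own 6 libraries with DESeq2 1.42.0 (Wald test, Benjamini-Hochberg adjusted p under 0.01), and both interactions on 12 libraries. The tool and threshold are those of the study's methods, which do not say whether groups were fitted pair by pair. edgeR 4.0.16 (quasi-likelihood) was the main alternative, and the others were TMM size factors, a filter on low counts (10 in 3 libraries), all 18 libraries in 1 fit, a replicate block, sex as a covariate, a threshold of 0.05 and left-out libraries. Fits without the high-Malat1 libraries were added after seeing the data. Scripts were tested on simulated data. The members, pathway lists and markers were chosen with earlier results of these data known. Values in every library are given for at most 12 members, taken in order of the number of comparisons in which they were called and then of the smallest adjusted p, from the 3 called members with the smallest adjusted p in each of the 9 comparisons, both genes of each paralogue pair and any member called in 3 or more comparisons. From pathway lists the 2 called genes with the smallest adjusted p per list and comparison could be named. Tmem258, Magt1 and fold changes of further members were added after their values were seen. Gene models were GENCODE vM21 (GRCm38), and TPM used merged exon lengths of 22593 of 24047 genes.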

Additional observations from a re-analysis of the deposited data

How the results depend on the processing

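Counts of called members depended on the tool and on single libraries, and the cause was not tested. With edgeR they were 8 in COLONIZED-WT against GF-WT and 0 in CONV-WT against GF-WT, CONV-Ern2-/- against GF-Ern2-/-, COLONIZED-Ern2-/- against GF-Ern2-/- and CONV-Ern2-/- against COLONIZED-Ern2-/-. The members' median log2 fold change between COLONIZED-WT and GF-WT was 0.36 with 18.3% of genes called in either direction, and 0.38 with 4.94% with edgeR, 0.35 with 8.98% with all 18 libraries and 0.32 with 1.92% with sex as a covariate, so calls were lost with little change in the median. In CONV-WT against GF-WT the median of 0.30 was 0.11 with sex as a covariate and 0.19 with the replicate block. In 1 fit of all 18 libraries the counts were 2 in COLONIZED-WT (8.98% of genes) and 5 in CONV-WT (14%) against GF-WT. They were 0 in COLONIZED-Ern2-/- against GF-Ern2-/- (8.52%) and in CONV-Ern2-/- against COLONIZED-Ern2-/- (3.32%). With sex as a covariate they were 3 in COLONIZED-WT (1.92% of genes) and 1 in CONV-WT (6.64%) against GF-WT, 2 in COLONIZED-Ern2-/- against GF-Ern2-/- (7.13%) and 4 in CONV-Ern2-/- against COLONIZED-Ern2-/- (4.76%). At an adjusted p under 0.05 they were 7 in CONV-WT against GF-WT, 2 in COLONIZED-Ern2-/- against GF-Ern2-/-, 3 in COLONIZED-Ern2-/- against COLONIZED-WT and 11 in CONV-Ern2-/- against COLONIZED-Ern2-/-. Shares of all genes are not given at this threshold or for most fits below that left out 1 library. Those counts do not set the members apart from other genes. The low-count filter gave 2 in COLONIZED-Ern2-/- against GF-Ern2-/- (8.21% of genes). Without the libraries of doubtful label they were 2 in COLONIZED-Ern2-/- against COLONIZED-WT (5.26% of genes) and 3 in CONV-Ern2-/- against COLONIZED-Ern2-/- (3.29%). The colonization interaction then had 1 GF-Ern2-/- library and a members' median of -0.45, against -0.18 with all libraries. The Sec61a1/Sec61a2 difference turned to -0.29 (adjusted exact permutation p = 0.437) and that of Tram1/Tram2 was 0.96 (0.155). Without the high-Malat1 libraries they were 0 in CONV-Ern2-/- against GF-Ern2-/- and against COLONIZED-Ern2-/- (medians -0.04 and -0.25, against -0.14 and -0.36 with all libraries) and 8 in CONV-Ern2-/- against CONV-WT. Leaving out 1 library at a time gave 1 to 25 in CONV-WT against GF-WT, 12 to 15 in COLONIZED-WT against GF-WT, 1 to 2 in CONV-Ern2-/- against GF-Ern2-/-, 0 to 2 in COLONIZED-Ern2-/- against GF-Ern2-/-, 0 to 14 in CONV-Ern2-/- against CONV-WT, 0 to 2 in COLONIZED-Ern2-/- against COLONIZED-WT, 2 to 16 in CONV-Ern2-/- against COLONIZED-Ern2-/- and 0 to 6 in the interaction for conventional raising. Paralogue differences then ran from 0.03 to 0.49 (Sec61a1/Sec61a2), 0.06 to 0.14 (Stt3a/Stt3b), -0.43 to -0.36 (Sec11a/Sec11c), -1.24 to -1.09 (Tusc3/Magt1) and 0.90 to 1.18 (Tram1/Tram2). TMM size factors left all 11 counts within 1.5 times their value. Replicate numbers gave no clear sign of pairing, though groups of 3 cannot exclude it. Deviations of same-numbered libraries correlated at -0.32 to 0.63 over 10015 genes, and every pair was over 0.1 in 0 comparisons. COLONIZED-Ern2-/- against GF-Ern2-/- came close, at 0.511, 0.096 and 0.285. In 1 comparison each library correlated best with its own number. With the replicate block the count was 2 in COLONIZED-Ern2-/- against GF-Ern2-/- (7.2% of genes), 14 in COLONIZED-WT (16.3%) and 3 in CONV-WT (9.4%) against GF-WT. It was 8 in CONV-Ern2-/- against COLONIZED-Ern2-/- (7.35%), 1 in CONV-Ern2-/- against GF-Ern2-/- (4.09%) and 0 elsewhere (0.0233% to 3.37%). Of 28 fold changes of called members none reversed in these fits, and 20 missed the threshold with edgeR, 22 with all 18 libraries and 18 with sex as a covariate. Low counts limit Sec61g and Tram2.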
